A study of Mus musculus with 6 samples.

Results

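The NRF2 and glutathione antioxidant genes described here are Nfe2l2, Keap1, Nqo1, Hmox1, Gclc, Gclm, Txnrd1, Srxn1, Slc7a11 and Gsr. They were taken as every gene probe of the array whose gene name is 1 of these 10, which gave 12 of 39429 gene probes. Hmox1 and Gsr had 2 probes each and the other genes 1 each. The study put Cy3-labelled RNA of mouse embryonic stem (ES) cells on Agilent arrays of 1 colour, with 3 arrays of wild type cells and 3 of cells carrying a Zscan5b knockout. The product of Zscan5b is a SCAN-domain zinc finger protein. Cells of both genotypes were cultured with leukemia inhibitory factor on mouse embryonic fibroblast feeders inactivated by mitomycin C, so any fibroblast left in the harvest adds its own RNA. Strain, passage, the kind of deletion and the number of knockout clones are not given in the sources used here. The study's design text calls the samples of a group biological replicates, and their titles do not name their cultures. The p-values therefore measure the spread between these samples, and the number of arrays limits the precision.

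NRF2, the product of Nfe2l2, is a transcription factor that KEAP1 holds in the cytoplasm and delivers to a ubiquitin ligase in unstressed cells. Oxidants and electrophiles modify cysteines of KEAP1, NRF2 accumulates, pairs with a small MAF protein and binds antioxidant response elements. The genes it raises detoxify quinones and haem, make and recycle glutathione, and keep thioredoxin and peroxiredoxins reduced.

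None of these genes passed the test between genotypes, and Nqo1 came nearest to it. Of 12 probes, 11 were well above background on all 6 arrays and were tested, and the Slc7a11 probe was not well above background on any array. By limma 0 of 11 were higher and 0 were lower in the knockout at an adjusted p below 0.05, where 0.124% of all tested probes were higher and 0.341% were lower. At the looser threshold of an unadjusted p below 0.05, 0 were higher and 1 was lower (Nqo1), where the whole table gave 10.6% and 11.3%. Nqo1 was also the 1 member probe whose groups did not overlap, with the knockout below (15.4% of all tested probes; another 13.6% had the knockout above). Shares of this size in the whole table mean that 1 in 11 is not a result about these genes. With 1 probe per gene, 9 genes had a median log2 fold change (knockout minus wild type) of -0.12, with 7 negative and 2 positive. Over all 19008 genes tested the median was -0.03, and 53.6% were negative. Hmox1 and Gsr counted as negative by their brighter probes, and their other probes were positive (0.12 and 0.02). With a gene's probes averaged the median of the members was -0.05, with Hmox1 and Gsr at -0.05 each.

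Values are log2 signal minus the 75th percentile of gene probes on the same array, and they compare arrays for 1 probe, not levels between genes. A fold change ± is its SE, and a mean ± is its SD with n = 3. Zscan5b read lower in the knockout without passing the test (log2 fold change -1.32 ± 0.29, limma adjusted p 0.107). It passed when wild type replicate 2 was left out (-1.54, adjusted p 0.0416), where 9.6% of all tested probes were called. With normexp background correction the Zscan5b difference was -0.59 (adjusted p 0.108). Zscan5b averaged -3.60 ± 0.46 over the wild type arrays and -4.92 ± 0.39 over the knockout arrays, and its probe was well above background on all 3 arrays of both. What part of the gene was deleted is not given, so whether this probe lies in it is not known. Wild type arrays filled slide 1 and scan 1 and knockout arrays slide 2 and scan 2, so slide and genotype cannot be told apart in any difference below. Of 22 feeder fibroblast markers, 21 were lower in the knockout, with 0 called by limma and 5 lower (22.7%) at an unadjusted p below 0.05. Over all genes tested 53.6% were negative, and 9.52% were higher and 12.1% lower at that unadjusted threshold. The same shares stand beside the counts of the other marker lists below, and whether any list differs from them was not tested. The mean of the fibroblast markers, centred over the arrays, was 1.02 and 0.86 in wild type replicates 2 and 3, -0.57 in wild type replicate 1 and -0.66 to -0.16 in the knockout. All 6 defining fibroblast markers (Col1a1, Col1a2, Col3a1, Dcn, Lum and Thy1) were well above background on every array. The 16 markers of undifferentiated ES cells had a list mean between -0.11 and 0.08 on the 6 arrays, with 0 called by limma. Of them, 2 were higher (Nanog 0.66 and Klf4 0.56, log2 fold change) and 2 lower (Pou5f1 -0.47 and Tdh -0.80) with an unadjusted p below 0.05. Of 8 endoderm markers 5 were positive (median 0.19), as were 5 of 6 macrophage markers (median 0.27), with 0 called by limma in either list; 3 endoderm markers were higher, 2 lower and no macrophage marker either with an unadjusted p below 0.05. In such bulk samples fewer cells of a type and less RNA per cell cannot be told apart.

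**Figure D1:**
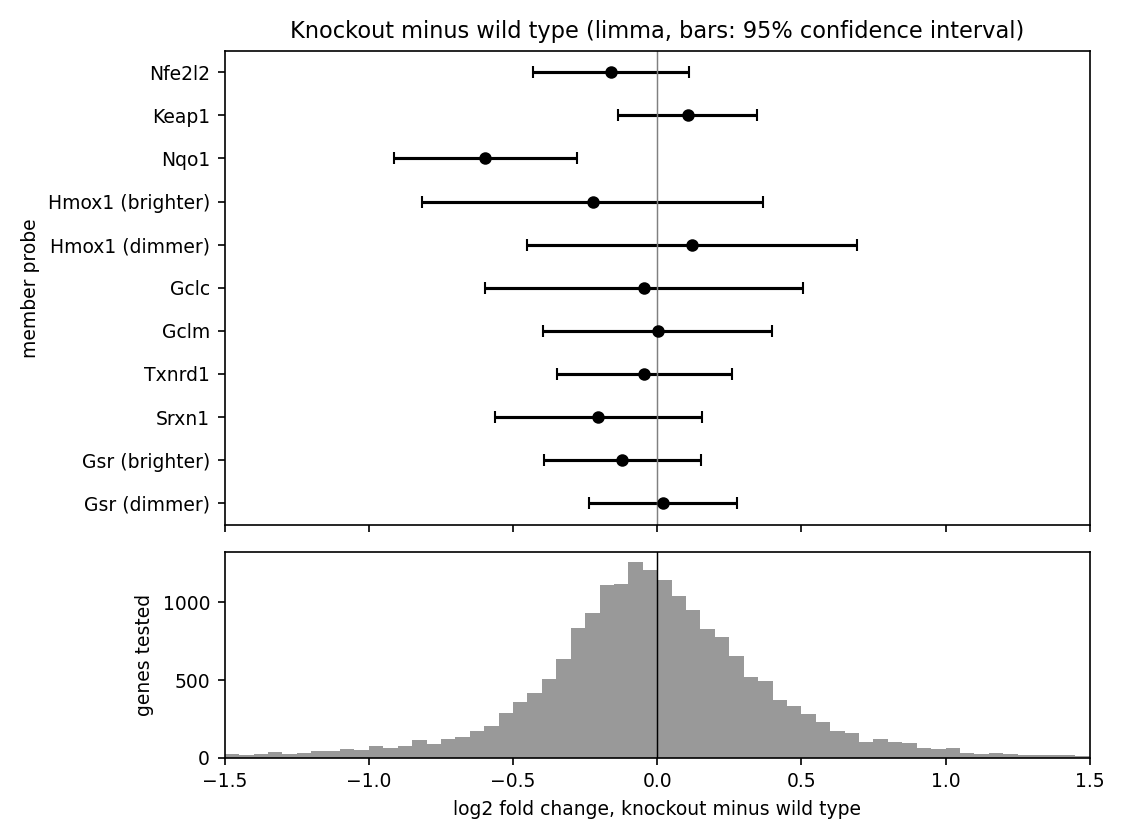
Upper panel, log2 fold change (knockout minus wild type) of the 11 tested member probes with the 95% confidence interval of the limma fit; lower panel, number of genes tested in bins of the same log2 scale, 1 probe per gene, without the genes beyond the axis. The Nqo1 interval, from -0.91 to -0.28, is the 1 interval that leaves out 0, and the other 10 probes lie between -0.22 and 0.12, near the middle of the distribution over all genes.

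The regulator and its inhibitor were measured at 1 probe each, and neither changed by the test. Nfe2l2 (probe on mm9 chromosome 2, 75513771 to 75513830, minus strand) gave readings of 2.76, 2.96 and 2.85 in wild type replicates 1 to 3 and 2.76, 2.76 and 2.56 in knockout replicates 1 to 3. The groups overlapped, because wild type replicate 1 lay at the level of knockout replicates 1 and 2. The log2 fold change was -0.16 ± 0.11 (95% confidence interval -0.43 to 0.11, limma adjusted p 0.413). Keap1, the adaptor that targets NRF2 for degradation, read 0.81, 0.80 and 0.88 in wild type cells against 0.86, 0.90 and 1.05 in knockout cells. Its groups overlapped through wild type replicate 3, and the log2 fold change was 0.11 ± 0.10 (-0.14 to 0.35, limma adjusted p 0.541). Over the 6 arrays, which share their genotype grouping, Nfe2l2 and Keap1 ran opposite to each other (Pearson r = -0.86, n = 6, a description). These bounds leave room for changes of Nfe2l2 transcript between 0.741 and 1.08 times the wild type level, and they say nothing of NRF2 protein, which is the step KEAP1 acts on. The Keap1 probe (mm9 chromosome 9, 21035292 to 21035732, minus strand) holds 60 bases over an interval of 441, so it crosses an intron and reads spliced RNA; its sequence, as designed, is shown for that.
Keap1 probe: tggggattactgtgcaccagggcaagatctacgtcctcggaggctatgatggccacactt

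Nqo1 encodes a quinone reductase and is widely used as a readout of NRF2 activity. Its probe (mm9 chromosome 8, 109912440 to 109912499, minus strand) gave readings of 0.36, 0.71 and 0.55 in wild type cells against 0.03, -0.19 and -0.01 in knockout cells. Each knockout array lay below every wild type array, and the nearest pair, wild type replicate 1 and knockout replicate 1, differed by less than the wild type range of 0.35. As processed signal the wild type arrays read 1095, 1395 and 1368 and the knockout arrays 1053, 790.1 and 891. The means were 0.54 ± 0.17 and -0.05 ± 0.12, a log2 fold change of -0.60 ± 0.13, or 1.51-fold lower, with a 95% confidence interval from 0.532 to 0.824 times the wild type level. The limma adjusted p was 0.105 and the unadjusted p 0.00344, and 3.27% of all tested probes had a p this small. The exact two-sided permutation p was 0.1, the smallest that 3 against 3 arrays allow. The difference ran from -0.69 to -0.51 over 16 alternatives (limma adjusted p 0.0470 to 0.361). Many of these could not change its sign. Leaving out or weighting arrays could not, as the groups did not overlap, and other filters, priors, blocks or probe rules kept its group means. Where the values themselves changed, it was -0.54 (normexp), -0.60 (quantile normalization), -0.65 (shift to the median) and -0.60 (authors' values). It passed in 1 alternative, with array weights (-0.63, adjusted p 0.0470), a setting that called 5.98% of all tested probes against 0.465% in the reported fit. Among the wild type arrays Nqo1 was lowest in replicate 1, which also had the lowest fibroblast marker mean of that group; knockout replicate 1 had a still lower marker mean (-0.66) and the highest Nqo1 of the knockout. The part of feeder RNA in the Nqo1 difference was not tested.

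Hmox1, haem oxygenase 1, breaks down haem and is induced by oxidants and by haem itself. Its brighter probe (mm9 chromosome 8, 77624207 to 77624266) gave readings of 3.32, 2.42 and 3.21 in wild type cells against 2.79, 2.73 and 2.77 in knockout cells. Wild type replicate 2 lay below all knockout arrays and the other wild type arrays lay above them, so the groups overlapped while the knockout values spanned only 0.064. The log2 fold change was -0.22 ± 0.24 (-0.82 to 0.37, limma adjusted p 0.600). Without wild type replicate 2 the brighter probe was lower in the knockout and passed the test (-0.51 ± 0.10, adjusted p 0.0432; 0.0432 to 0.917 over the alternatives), where 9.60% of all tested probes were called. The same probe gave -0.05 without wild type replicate 1 (adjusted p 0.917) and -0.11 without replicate 3 (adjusted p 0.853), and the mean of both Hmox1 probes over all arrays gave -0.05 (adjusted p 0.915). The dimmer probe, nearer the start of the transcript (77620797 to 77620856), read -1.13, -1.84 and -0.98 in wild type cells against -1.04, -1.28 and -1.26 in knockout cells. It too was lowest in wild type replicate 2, but its log2 fold change was 0.12 ± 0.24 (adjusted p 0.780), against -0.14 without that replicate (adjusted p 0.469). The Hmox1 call without that replicate rested on 1 of its 2 probes. Over the 6 arrays the probes had a Pearson r of 0.77. The sequence of the dimmer probe is shown because it set that call apart.
Hmox1 dimmer probe: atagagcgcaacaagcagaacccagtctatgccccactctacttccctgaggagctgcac

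Glutathione synthesis begins with cystine uptake and the ligase that joins glutamate to cysteine. Gclc, the catalytic subunit of that ligase (mm9 chromosome 9, 77641296 to 77641355), gave readings of 2.21, 1.34 and 1.92 in wild type cells against 1.85, 1.67 and 1.80 in knockout cells. The knockout values lay inside the wild type range, with a log2 fold change of -0.05 ± 0.23 (-0.60 to 0.50, limma adjusted p 0.918). Gclm, the modifier subunit that lets the ligase work at physiological glutamate, read -0.36, -0.70 and -0.16 in wild type cells against -0.34, -0.55 and -0.32 in knockout cells. All 3 knockout values again fell inside the wild type range, and the log2 fold change was 0.00 ± 0.16, with an interval from 0.759 to 1.32 times the wild type level (adjusted p 0.997). Slc7a11, the cystine/glutamate antiporter subunit that feeds the pathway, gave processed signals of 5.7, 1.8 and 2.0 in wild type cells against 2.4, 2.7 and 2.8 in knockout cells, where the lowest signal well above background on an array ranged from 8.69 to 13.7. Its 1 probe (mm9 chromosome 3, 50169700 to 50169759, minus strand), which starts at base 8325 of the transcript, was under that level on each array, so no fold is given. The Gclm probe (mm9 chromosome 3, 121962174 to 121964809) holds 60 bases over 2636 and, like that of Keap1, joins exons, for which it is shown.
Gclm probe: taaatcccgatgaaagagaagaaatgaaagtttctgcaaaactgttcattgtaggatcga

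Glutathione reductase, Gsr, which regenerates reduced glutathione with NADPH, differed by less than the spread between arrays at both probes. The brighter probe (mm9 chromosome 8, 34808488 to 34808547) gave readings of 4.27, 4.37 and 4.07 in wild type cells against 4.13, 4.08 and 4.14 in knockout cells, a log2 fold change of -0.12 ± 0.11 (limma adjusted p 0.537). The neighbouring probe (34808413 to 34808472) had a log2 fold change of 0.02 ± 0.11 (adjusted p 0.924). Both had wild type replicate 2 as their highest wild type array, the reverse of Gclc and Hmox1. Across the knockout arrays they varied by an SD of only 0.03 each, which 4.51% and 4.34% of all genes tested matched or fell under.

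Of the thioredoxin branch, Txnrd1 encodes the selenoprotein that reduces thioredoxin, and Srxn1 encodes sulfiredoxin, which repairs over-oxidised peroxiredoxins. Txnrd1 (mm9 chromosome 10, 82360230 to 82360289) gave readings of 5.19, 4.91 and 4.85 in wild type cells against 4.92, 5.03 and 4.87 in knockout cells. Wild type replicate 1 was the highest array and the others intermingled, with a log2 fold change of -0.04 ± 0.13 (-0.35 to 0.26, limma adjusted p 0.850). Srxn1 (mm9 chromosome 2, 151937009 to 151937068) gave readings of 2.89, 2.41 and 2.69 in wild type cells against 2.56, 2.42 and 2.39 in knockout cells. Wild type replicates 1 and 3 exceeded all knockout arrays and replicate 2 did not. The log2 fold change was -0.20 ± 0.15 (-0.56 to 0.15, adjusted p 0.431). Leaving out 1 wild type array at a time gave -0.09 (adjusted p 0.740) without replicate 1, -0.33 (adjusted p 0.125) without replicate 2 and -0.19 (adjusted p 0.599) without replicate 3.

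**Figure D2:**
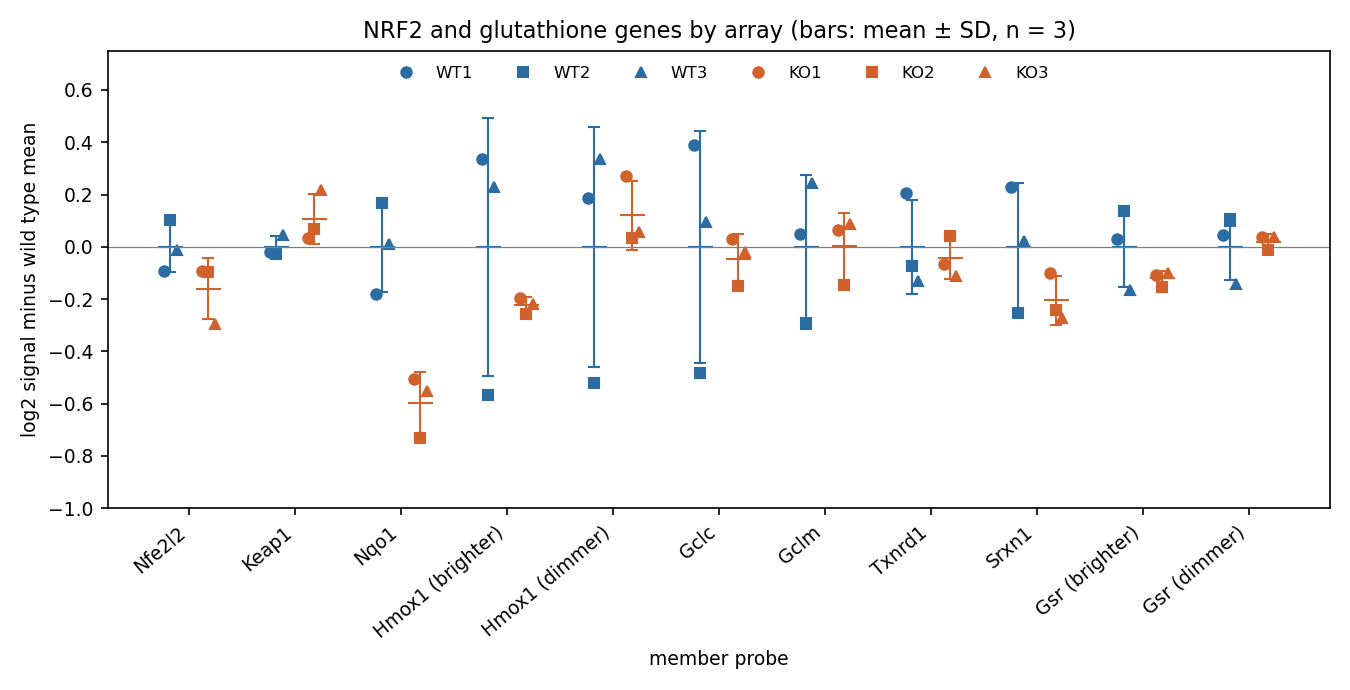
Each point is 1 array (blue, wild type; orange, knockout; symbols, replicate numbers 1 to 3) for 1 member probe, as log2 signal minus that probe's wild type mean; bars are the group mean ± SD (n = 3). Only Nqo1 has its orange points wholly apart from its blue ones, and in Hmox1, Gclc, Gclm and Srxn1 the blue square of wild type replicate 2 lies lowest of its group. In Keap1 that square is lowest as well, just under replicate 1.

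For 6 of the 9 tested genes, all but Nfe2l2, Keap1 and Nqo1, the wild type SD exceeded the difference between genotypes. In Hmox1, Gclc, Gclm and Srxn1, grouped here after their values were seen, wild type replicate 2 was the lowest array of its group. It was also the lowest of its group for Keap1, which was left out of the grouping, by a log2 gap of only -0.04. Wild type replicate 2 lay under the mean of replicates 1 and 3 by a log2 gap of -0.85 for Hmox1 (-0.78 at the dimmer probe), -0.73 for Gclc, -0.44 for Gclm and -0.38 for Srxn1. Gaps as low as these were found in 4.42% (Hmox1), 6.02% (Gclc), 12.7% (Gclm) and 15.4% (Srxn1) of all genes tested. Nqo1, Nfe2l2 and Gsr went the other way in the same array, by 0.25, 0.15 and 0.20. Wild type replicate 2 was the lowest of the 6 arrays for 4 of the 9 genes (Keap1, Hmox1, Gclc and Gclm) and the highest for 3 (Nfe2l2, Nqo1 and Gsr), against 16.1% and 23.1% of all genes. Pearson r over the 6 arrays (n = 6, descriptions of the same libraries) was 0.93 for Hmox1 with Gclc, 0.90 for Hmox1 with Srxn1, 0.77 for Hmox1 with Gclm, 0.83 for Gclc with Srxn1, 0.75 for Gclc with Gclm and 0.52 for Gclm with Srxn1. These 4 genes were grouped by a low value in wild type replicate 2, so high r values among them follow in part from the grouping. For Nqo1 Pearson r was 0.09 with Hmox1, -0.17 with Gclc, -0.08 with Gclm and 0.32 with Srxn1. For Keap1 it was -0.11 with Hmox1, 0.03 with Gclc, 0.35 with Gclm and -0.49 with Srxn1. Fibroblast markers were high in wild type replicate 2 and in replicate 3 alike (1.02 and 0.86), while Hmox1 was 2.42 in the former and 3.21 in the latter; the part of feeder RNA in the Hmox1 values was not tested.

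**Figure D3:**
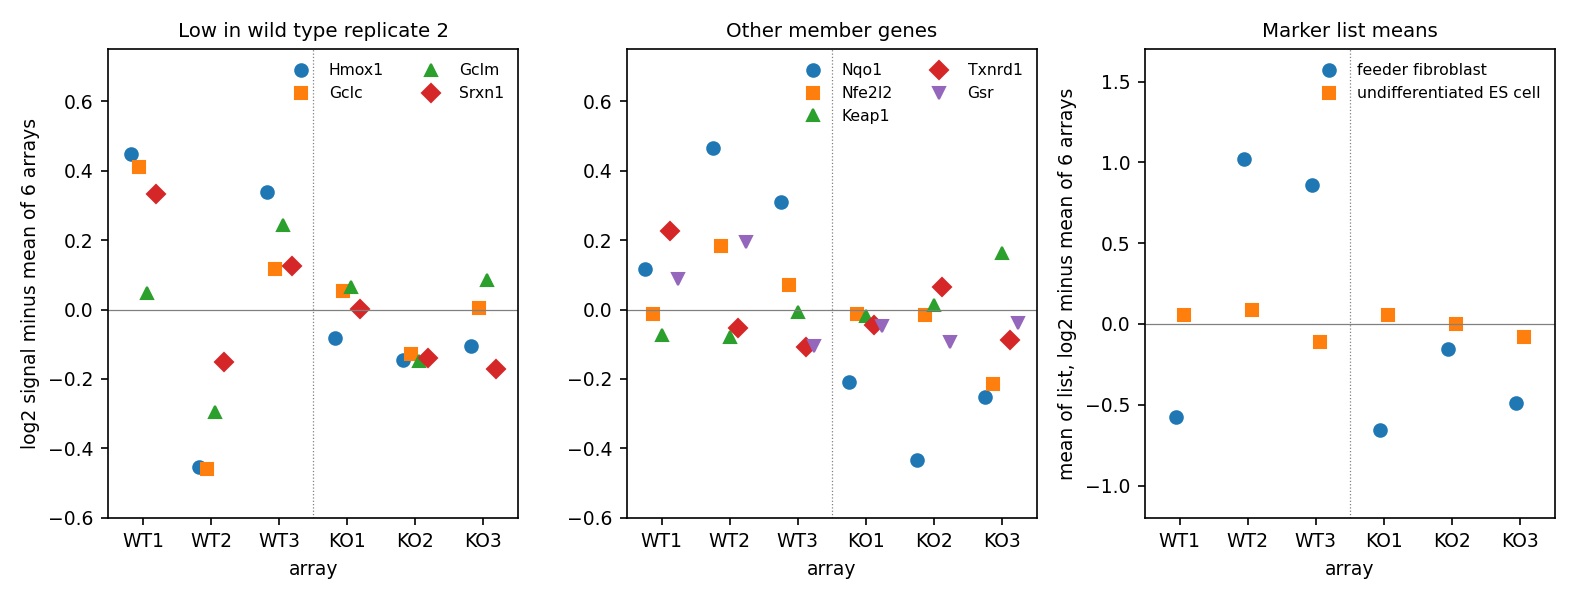
Each point is 1 gene (left and middle) or the mean of 1 marker list (right) on 1 array, as log2 signal minus the mean of the 6 arrays; the dotted line parts wild type from knockout arrays, and the right panel has its own scale. In wild type replicate 2 Hmox1 and Gclc sit at -0.45 and -0.46 and Nqo1 at 0.47, and the fibroblast list is at 1.02 there and 0.86 in replicate 3.

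Spread among the knockout arrays was smaller than among the wild type arrays for 7 of the 9 genes, as it was for 73.6% of all genes tested. Over the 9 genes the median SD was 0.18 among wild type arrays and 0.094 among knockout arrays, beside 0.22 and 0.13 over all genes. Nfe2l2 and Keap1 were the exceptions, with SDs of 0.10 and 0.04 among wild type arrays against 0.12 and 0.10 among knockout arrays. Hmox1, at its brighter probe, had the widest wild type spread of the 9 (SD 0.49 against 0.03 in the knockout), and 16.1% of all genes varied at least as much in wild type. At its dimmer probe the SDs were 0.46 in wild type and 0.13 in the knockout, and 52.2% of all genes had a knockout SD that low.

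Promoter sequence was looked up in RefSeq windows on GRCm38.p6, from 250 bases before to 50 after each start site, which held 9 windows for 7 of the 10 genes. No window was held for Hmox1, Gclc or Gsr. The antioxidant response element core was searched as TGACNNNGC and the AP-1 site, which shares the TGA start and can overlap it, as TGANTCA, both on either strand. The core was found in 4 of the 9 windows, 1 each of Nfe2l2, Gclm, Txnrd1 and Srxn1, and in 12.4% of all 32851 windows of that length; TGANTCA was found in 1 of the 9 (Srxn1) and in 7.81% of all. The 250 bases before the start site are printed for Gclm and Srxn1, which were both lowest of their group in wild type replicate 2, and for Nqo1, the gene nearest to a difference between genotypes, in which neither set of letters was found. Capitals mark matches within those bases. The Gclm match begins 134 bases before the start site on the reverse strand, the AP-1 letters of Srxn1 begin 102 and 45 bases before it and its core match 28 bases after it, and no match overlaps another. A match describes the letters and is no evidence of binding, and the lack of a match in a window says nothing of sites outside it. The printed positions are chr3:122245307-122245556 (plus strand), chr2:152105274-152105523 (plus) and chr8:107403206-107403455 (minus).
Gclm promoter: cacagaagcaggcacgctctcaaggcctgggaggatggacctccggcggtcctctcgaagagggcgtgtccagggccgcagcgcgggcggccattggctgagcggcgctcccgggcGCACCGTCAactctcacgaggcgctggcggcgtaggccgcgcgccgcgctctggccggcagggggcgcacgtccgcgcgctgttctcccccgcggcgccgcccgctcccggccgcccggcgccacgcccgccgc
Srxn1 promoter: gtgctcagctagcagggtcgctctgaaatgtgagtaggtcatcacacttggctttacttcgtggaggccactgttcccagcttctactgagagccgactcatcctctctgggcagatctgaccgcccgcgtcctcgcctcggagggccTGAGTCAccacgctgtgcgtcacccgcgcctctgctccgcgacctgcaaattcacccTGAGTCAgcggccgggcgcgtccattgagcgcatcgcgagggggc
Nqo1 promoter: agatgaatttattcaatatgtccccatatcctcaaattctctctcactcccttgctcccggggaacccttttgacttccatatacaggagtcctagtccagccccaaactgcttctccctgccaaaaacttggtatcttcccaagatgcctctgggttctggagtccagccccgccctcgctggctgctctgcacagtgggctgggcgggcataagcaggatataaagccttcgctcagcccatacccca

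The wider pathway was read from 4 lists of other antioxidant genes, of which 102 of 103 genes were tested, 1 probe each. By limma 0 of 102 were higher and 0 were lower at an adjusted p below 0.05, where 0.0894% and 0.368% of all genes were. With an unadjusted p below 0.05, 5 were higher (4.90%) and 18 lower (17.6%), against 9.52% and 12.1% of all genes. The groups did not overlap with the knockout below in 25 genes (24.5%) and with the knockout above in 6 (5.88%), against 16.4% and 12.3% of all genes. The median log2 fold change was -0.07, beside -0.03 over all genes. Whether these shares differ from those of all genes was not tested. Fibroblast markers lay lower in the knockout by a median of -0.90 in the same arrays, and their part in the lower list genes was not tested. In 3 of the 4 lists, all but the regulators, the list mean was highest in wild type replicate 2 (0.23 to 0.27, centred), where the fibroblast mean was also highest. In wild type replicate 3 the fibroblast mean was 0.86. There the list mean was 0.19 for other NRF2 targets, -0.02 for glutathione genes and -0.03 for the thioredoxin to catalase list.

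Among NRF2's regulators and partners (15 tested, median 0.11, 8 positive and 7 negative), Maff and Rbx1 had the largest differences in each direction at an unadjusted p below 0.05. Maff, a small MAF protein that can pair with NRF2, read 0.18, -1.26 and -1.51 in wild type cells against 0.35, 0.63 and 0.51 in knockout cells. Wild type replicate 1 stood far from the other wild type arrays and close to the knockout, and the log2 fold change of 1.36 ± 0.44 had a limma adjusted p of 0.169. It passed without wild type replicate 1 (1.88, adjusted p 0.0239), where 2.4% of all tested probes were called against 0.465% in the reported fit. Rbx1, the RING subunit of the ligase that KEAP1 serves, had a log2 fold change of -0.27 ± 0.10 (adjusted p 0.201).

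Other NRF2 target genes (26 tested, median -0.16, 8 positive and 18 negative) had Lpcat1 and Akr1c13 as their largest differences in each direction with an unadjusted p below 0.05. Lpcat1, an acyltransferase of phospholipid remodelling, had a log2 fold change of 0.44 ± 0.15 (limma adjusted p 0.187). Akr1c13, an aldo-keto reductase with close relatives that 1 probe may not tell apart, read -3.01, -3.24 and -2.54 in wild type cells against -3.54, -4.09 and -4.29 in knockout cells. All its knockout arrays were lower, by a log2 fold change of -1.04 ± 0.26, without passing the test (adjusted p 0.122). It passed with array weights (-1.19, adjusted p 0.0459), a setting that called 5.98% of all tested probes.

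Genes of glutathione synthesis, use and transfer (38 tested, median -0.02, 18 positive and 20 negative) included Ggt1, which breaks down extracellular glutathione, with a log2 fold change of 0.49 ± 0.15 (limma adjusted p 0.159), and the microsomal transferase Mgst2, with one of -1.07 ± 0.34 (adjusted p 0.166). Mgst2 read -2.27, -1.62 and -0.88 in wild type cells against -2.61, -2.59 and -2.80 in knockout cells. Ggt1 passed in 2 of the alternatives, at 0.62 (adjusted p 0.0463) with array weights and at 0.63 (adjusted p 0.0387) when wild type replicate 2 was left out. Those settings called 5.98% and 9.6% of all tested probes. The wild type values of Mgst2 spread widely and the knockout values lay close together below them.

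In the list of thioredoxin, peroxiredoxin, superoxide dismutase and catalase genes (23 tested, median -0.15, 7 positive and 16 negative), no gene was higher and 5 were lower (21.7%) at an unadjusted p below 0.05. Of all genes, 9.52% were higher and 12.1% lower at that threshold, and whether the shares differ was not tested. Prdx3, the mitochondrial peroxiredoxin, read 1.85, 1.81 and 1.89 in wild type cells against 1.43, 1.42 and 1.34 in knockout cells. The SDs were 0.04 and 0.05, and the log2 fold change of -0.45 ± 0.09 was larger than that spread, but the limma adjusted p was 0.0939. Prdx3 passed without wild type replicate 2 (-0.47, adjusted p 0.0464) and with array weights (-0.45, adjusted p 0.0456), settings that called 9.60% and 5.98% of all tested probes.

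**Figure D4:**
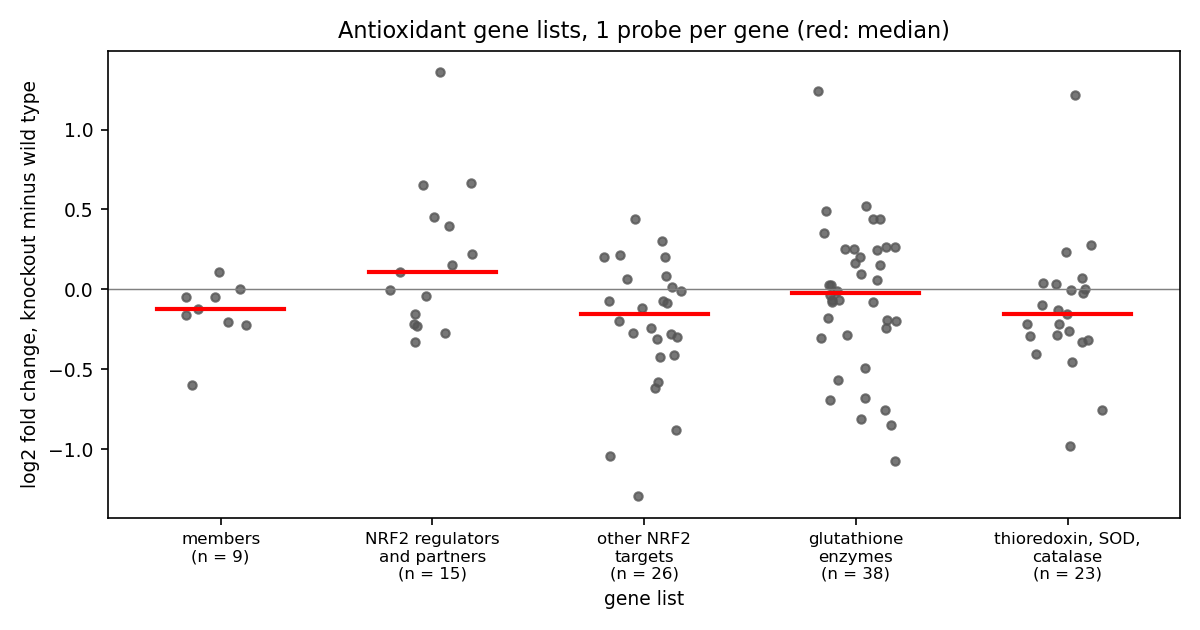
Each point is the log2 fold change (knockout minus wild type) of 1 gene at its brightest tested probe, for the 9 tested members and the 4 wider lists; red bars are medians and the sideways scatter has no meaning. The medians run from -0.16 to 0.11, and Maff is the highest point of the regulators, at 1.36.

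Across all named genes of the array, those whose profile over the 6 arrays was most like that of Nqo1 and Nfe2l2 were picked by Pearson r among 9690 genes with an SD of at least 0.2 that were well above background on every array. For Nfe2l2 these were H2ac21 (0.99), Gucy1a2 (0.98) and BC028777 (0.98). For Nqo1 they were a transcript named only by accession (0.99), 4930519P11Rik (0.99) and Olfr1109 (0.98). None of these 6 is a member of the antioxidant lists. These likenesses over 6 arrays are descriptions with no test.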

How the data were processed

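Per the file headers, the authors made each deposited table of spot intensity (linear Cy3 signal) with Agilent Feature Extraction 10.7.3.1, with spatial detrending as background subtraction, multiplicative detrending, and surrogate values where a signal was not above background. The submitters' processing notes name 10.3.1.1, and the difference was not resolved. The authors' deposited series table holds log2 values centred per probe (column medians 0.02, -0.01 and -0.07 for wild type and -0.02, 0.02 and 0.03 for the knockout, the scaling used: not given in the sources used here) and was 1 of the alternatives.

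Samples were grouped by their titles. Control spots and outlier spots were left out (no member value was affected), log2 signals were averaged over a probe's spots, and the array's own 75th percentile was taken off. Probes well above background on at least 3 of 6 arrays were tested (26651 of 39429, 2 of them without a p) with lmFit and eBayes in limma 3.58.1 (R 4.3.3, with data.table, version 1.17.8), two-sided, with Benjamini-Hochberg adjustment over all tested probes and a threshold of 0.05; no probe was saturated. For gene counts the tested probe with the highest mean stood for the gene. Positions are those of the files (mm9), and symbols of list genes were updated through RefSeq on GRCm38.p6: 26761 probes were named by accession, 3814 by symbol and 639 by synonym, 5509 stayed under the name in the files and 2706 were unnamed.

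All members are reported at every probe. From each list the text takes the gene with the largest rise and fall at an unadjusted p below 0.05, and for Nfe2l2 and Nqo1 the 3 genes with the highest Pearson r. Members and lists were chosen with earlier results of these data known. Alternatives changed the background correction, normalization, filter, variance prior, array weights, probe rule, value source and replicates.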

Additional observations from a re-analysis of the deposited data

How the results depend on the processing

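The 9 member genes, with Hmox1 and Gsr at their brighter probes or probes averaged, kept the sign of their log2 fold change in all 16 alternatives, with 3 exceptions. These were Txnrd1 (2 of the other sign, -0.11 to 0.10), Gclc (4, -0.29 to 0.15) and Gclm (6, -0.16 to 0.12), whose values lay near 0. Other filters, the other prior and the block could change only the p. The dimmer Hmox1 probe turned negative with array weights (-0.06) and without wild type replicate 2 (-0.14). The dimmer Gsr probe did so with normexp (-0.06), the shift to the median (-0.04) and without wild type replicate 3 (-0.05). The members' median ran from -0.18 to -0.03. No member probe was called higher in any alternative. With array weights 1 member probe was called lower (Nqo1), as were 5 list genes, and 1 list gene was called higher; Zscan5b then passed (-1.58, adjusted p 0.0393). That setting called 1593 of all tested probes (5.98%) against 124 (0.465%). Leaving out 1 replicate at a time gave 0 to 1 member probes lower (Hmox1, without wild type replicate 2), 0 to 5 list genes higher, 0 to 6 lower, and a Zscan5b log2 fold change from -1.55 to -1.08. The 5 higher came without wild type replicate 2, beside 2 lower, and the 6 lower without wild type replicate 1, beside 1 higher; the cause was not tested. Over all tested probes 2557 were called without wild type replicate 2, 640 without wild type replicate 1 and 0 without any other single array. There were also 0 with normexp, without a detection filter, with probes well above background on all 6 arrays and with a trended and robust prior, where 5785, 6514, 5458 and 6192 had an unadjusted p below 0.05. The counts were 181 with quantile normalization, 231 with the shift to the median and 120 with the authors' values. Zscan5b was -0.59 with normexp. Shared replicate numbers did not pair the samples (correlations of same-numbered deviations 0.16, 0.23 and -0.14), and with the replicate number as a block no member and no probe passed (Nqo1 -0.60, adjusted p 0.216; Zscan5b adjusted p 0.202). Slc7a11 alone among the members was not well above background, but the background correction moved others. With normexp Nfe2l2 was -0.26 (limma unadjusted p 0.0478, adjusted p 0.228), against -0.16 in the reported fit.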
